A study of Macaca mulatta with 6 samples.

Results

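The cytosolic ribosomal protein genes were taken by name from a table of 28536 genes in tracheal tissue of rhesus monkeys. A gene was a member when its whole symbol was RPL or RPS followed by digits and an optional A, or was RPLP0, RPLP1 or RPLP2. The rule found 74 genes, 45 of the large and 29 of the small ribosomal subunit, and used no measured value. Poly(A)-selected RNA was sequenced in 6 libraries. In 3 of them the animals had been given a tracheal lubricant coated with the material Oxy@Lipo/Gel in a model of endotracheal intubation under general anaesthesia, and the other 3 came from a control group given normal saline. The series sets a modified lubricated catheter against a traditional one, but intubation is named in the entry of the Oxy@Lipo/Gel group alone, and whether control animals were intubated is not stated. The labels give no age or sex of the animals. They call the replicates biosamples without saying that they come from separate animals. The p-values therefore reflect only how these samples vary, which may be partly technical. The tissue entry names a catheter and the RNA extraction is described for cultured lines, while the treatment entry names tracheal tissue; markers of airway epithelium, glands and cartilage were detected in every library.

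Ribosomal proteins clothe the ribosomal RNAs of the large and the small subunit and are needed for the assembly, stability and function of the particle. Their genes are among the most active of nearly every cell, and the subunits need their proteins in matched amounts. Most of their mRNAs begin with a terminal oligopyrimidine tract (TOP), through which the growth-regulating kinase mTOR and the RNA-binding protein LARP1 control their translation and stability together. In the airway these mRNAs are found in every cell type of the wall, so a bulk library holds the sum over all of them.

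All 74 members were detected in every library, and the lowest count of any member in any library was 1692, so the SD from counting alone was at most 2.43% of a value. In the Oxy@Lipo/Gel libraries 3.20%, 3.02% and 2.95% of all counts fell on the members in replicates 1, 2 and 3, against 4.88%, 5.40% and 3.89% in the control libraries. The Oxy@Lipo/Gel libraries lay close together and all lay below the control libraries, of which replicate 3 came nearest. The share was 3.06 ± 0.13% in the Oxy@Lipo/Gel group and 4.72 ± 0.764% in the control group (SD, n = 3 each), a ratio of 0.647. The ratio was 0.697 without control replicate 2 and 0.595 without control replicate 3, the highest and lowest with a library left out. Less RNA per cell and fewer cells rich in these mRNAs cannot be told apart in bulk tissue.

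Some facts of the series bear on these shares. Library totals were 20089109 to 23405294 counts in the Oxy@Lipo/Gel group and 17097177 to 22194965 in the control group. The 2 most abundant genes of the table, which carry identifiers without a gene name, took 9.96%, 11.2% and 12.8% of the counts in the Oxy@Lipo/Gel libraries and 9.63%, 24.0% and 10.2% in control replicates 1, 2 and 3. With these genes left out of the total, the ratio of the member shares was 0.614. Basal epithelial markers ran in the same order as the members within the control group. All 7 were detected, and all 7 had a log2 fold change below 0 that did not pass the test in edgeR. They summed to 3939, 1810 and 2967 CPM in the Oxy@Lipo/Gel libraries, against 6458, 12040 and 2421 CPM in control replicates 1, 2 and 3. Within the Oxy@Lipo/Gel group the order of the basal markers was that of the members neither in shares nor in CPM. Skeletal muscle markers, 5 of 6 in the table, had the same control order, at 30.8, 48.1 and 16.2 CPM. In the Oxy@Lipo/Gel libraries the skeletal muscle markers summed to 15.4, 24.7 and 27.0 CPM. This was the order of the members in CPM and the reverse of their order in shares. Multiciliated markers, 7 of 8 in the table, summed to 2695, 2315 and 1073 CPM in the Oxy@Lipo/Gel libraries and to 2243, 393.8 and 2616 CPM in the control libraries, so control replicate 2 was high in basal and low in multiciliated markers. Gland markers (6 of 6 detected) summed to 9120 to 30210 CPM in the Oxy@Lipo/Gel group and 603 to 1455 CPM in the control group, which did not overlap. Smooth muscle markers (7 of 7) summed to 1908 to 20240 CPM in the Oxy@Lipo/Gel group and 893.7 to 2634 CPM in the control group, which did overlap. The 6 B-cell markers summed to 21.8 to 62.9 CPM in the Oxy@Lipo/Gel group and 3.52 to 3.79 CPM in the control group, and the 8 chondrocyte markers to 242 to 459 CPM in the Oxy@Lipo/Gel group and 55.6 to 92.7 CPM in the control group. The 6 secretory epithelial markers summed to 9905 to 40540 CPM in the Oxy@Lipo/Gel group. In control replicates 1, 2 and 3 they summed to 16620, 2430 and 14360 CPM. In edgeR 6 of 6 B-cell, 3 of 6 gland, 3 of 8 chondrocyte and 1 of 6 secretory markers passed as higher. Of all genes tested 1.54% passed in either direction. The 4 thyroid follicle markers summed to 7.39 to 8.35 CPM in the Oxy@Lipo/Gel libraries and to 5.53, 9.84 and 5616 CPM in control replicates 1, 2 and 3, the last standing far apart. The part of these cell types in the member values was not tested.

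The study's stated aim was to find molecules related to injury of the mucosa by intubation with either kind of catheter. Every ribosomal protein gene of the list measured lower on average in the Oxy@Lipo/Gel libraries, and none passed the test across all genes. CPM here are counts scaled to a common library size after TMM, a correction for differences in RNA composition. The median log2 fold change of the 74 members was -0.68, a level of 0.624 times that of the control group, with values from -1.20 to -0.26. Over all 18676 genes tested the median was -0.04, and 9890 log2 fold changes were below 0. In edgeR's quasi-likelihood test, 0 of 74 members passed an adjusted p of 0.05, where 0.685% of all genes tested were called lower. The smallest adjusted p of a member in edgeR was 0.0617. At an unadjusted p under 0.05 edgeR placed 46 of 74 members lower and 0 higher, and 12.6% of all genes tested lower. That member count was 12, 5 and 20 without Oxy@Lipo/Gel replicates 1, 2 and 3, and 18, 31 and 68 without control replicates 1, 2 and 3. It was 9 with a trend on gene length removed. Without Oxy@Lipo/Gel replicate 1 or 2 the member shares of 16.2% and 6.76% lay below the 20.7% and 11.95% of all genes with such a p in either direction, and with the trend removed 12.2% of members stood beside 22.0% of all genes. DESeq2, which scales by median ratios and estimates the spread in another way, called 26 of 74 members lower and 0 higher, beside 5.88% of all genes called lower. In CPM the groups did not overlap for 65 of 74 members, all lower in the Oxy@Lipo/Gel group, and for 17.7% of all genes tested in that direction. A p that misses the threshold does not show that the levels were alike.

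**Figure D1:**
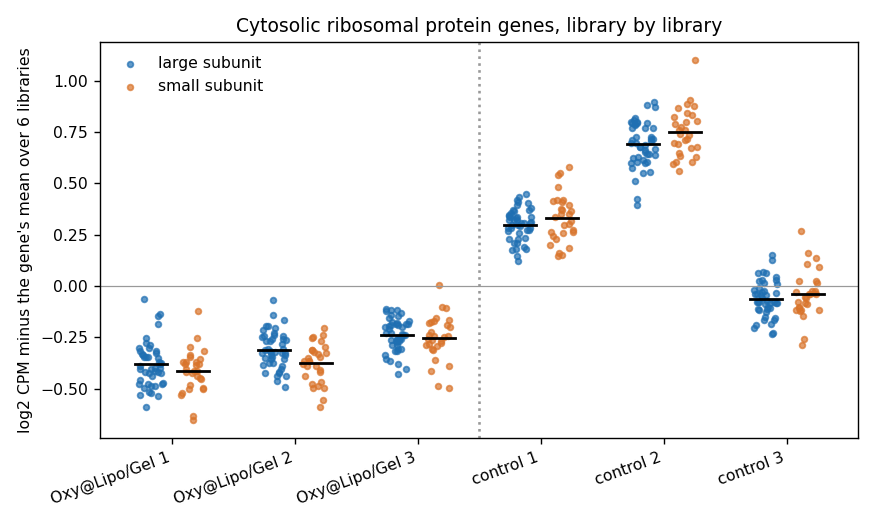
Each point is a member gene in 1 library, as log2 CPM minus that gene's mean over the 6 libraries, with large subunit genes in blue, small subunit genes in orange and a black bar at the mean of each subunit. The mean over members was -0.39, -0.34 and -0.24 in the Oxy@Lipo/Gel libraries and 0.31, 0.71 and -0.05 in control replicates 1, 2 and 3.

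The members varied together from library to library. Set against its own mean over the 6 libraries, the average member lay at -0.39, -0.34 and -0.24 in the Oxy@Lipo/Gel libraries and at 0.31, 0.71 and -0.05 in the control libraries on the log2 scale. These values are CPM after TMM, with factors of 1.104, 1.015 and 0.9293 in Oxy@Lipo/Gel replicates 1, 2 and 3. Without TMM the member shares of all counts, 3.20%, 3.02% and 2.95%, put these replicates in the reverse order. Within a library the members differed little from the average member, with an SD over members of 0.09 to 0.12. In CPM control replicate 2 was the highest of the 6 libraries in all 74 members. Among the control libraries replicate 1 came next and replicate 3 was the lowest. Control replicates 1 and 2 were above every Oxy@Lipo/Gel library for 74 of 74 members, and control replicate 3 for 65. In FPKM, which scale by gene length and library total without TMM, the order of control replicates 1 and 2 differed for some members. RPL39 had 244 FPKM in control replicate 1 and 211 in control replicate 2, and RPL19 had 859 and 817. In CPM the median ratio of control replicate 2 to control replicate 3 was 1.71. The highest and lowest Oxy@Lipo/Gel libraries differed by a median factor of 1.13. The coefficient of variation had a median of 6.49% (1.12% to 16.9%) in the Oxy@Lipo/Gel group and 26.5% (12.9% to 36.4%) in the control group. For the 2439 other genes with a mean of at least 80 CPM these medians were 14.1% in the Oxy@Lipo/Gel group and 21.1% in the control group. Without control replicate 2 the median log2 fold change of the members was -0.46, and without control replicate 3 it was -0.86, with 0 members called either way.

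The levels per length put all 74 members among the 500 most abundant genes tested. FPKM, fragment counts divided by gene length and library total, allow genes to be compared with each other. Over the 6 libraries the median member had a mean of 711 FPKM, against 4.51 FPKM for the median gene tested. RPS18, a protein of the small subunit head, was the highest, with 1485, 1351 and 1443 FPKM in the Oxy@Lipo/Gel libraries, against 2461, 2825 and 1921 FPKM in the control libraries. Its lowest control library lay above its highest Oxy@Lipo/Gel library. RPL27A of the large subunit followed with 1233 ± 20.9 FPKM in the Oxy@Lipo/Gel libraries and 2195 ± 453 FPKM in the control libraries (SD, n = 3 each), and then the stalk protein gene RPLP1 with 1136 ± 100.1 FPKM in the Oxy@Lipo/Gel libraries and 2052 ± 395 FPKM in the control libraries. Neighbours in this order, such as RPS18 and RPL27A, differed by less than the spread between the control libraries. The lowest mean levels were those of RPL22 at 215, RPL36A at 198, RPL39 at 186, RPL29 at 171 and RPS10 at 171 FPKM over all libraries. RPS10, the lowest, had 143, 136 and 137 FPKM in the Oxy@Lipo/Gel libraries, against 205, 241 and 165 FPKM in the control libraries. The mean levels thus spanned a factor of 11.2. An FPKM depends on the gene length in the annotation, which ran from 369 to 2198 bases over the members. Ribosomal protein genes have many processed pseudogenes, and reads shared with these copies make the counts of any single member uncertain.

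**Figure D2:**
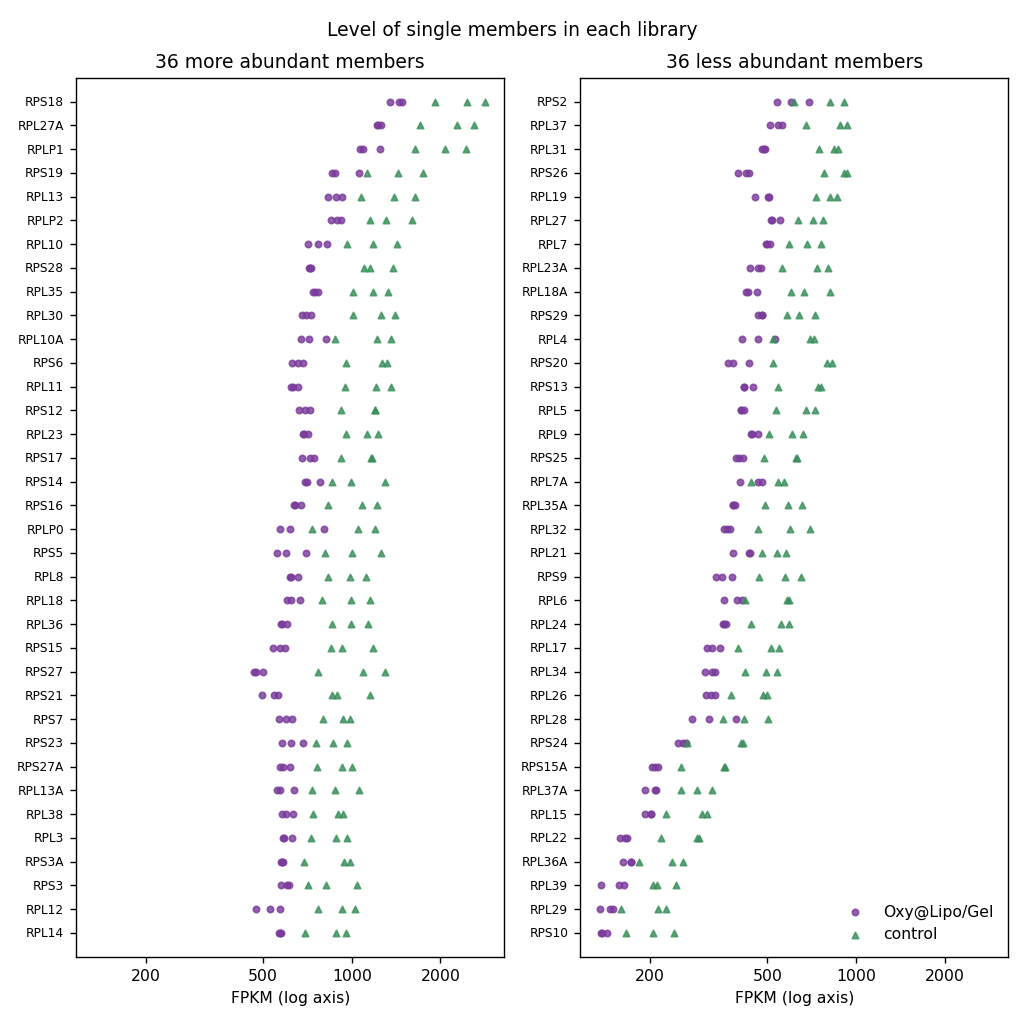
FPKM of 72 members on a log axis, with the 36 more abundant ones left and the 36 less abundant right, circles for the 3 Oxy@Lipo/Gel libraries and triangles for the 3 control libraries. RPS18 is at the top and RPS10 at the bottom, and for 67 of these 72 members all circles lie left of all triangles, as for 16.0% of all genes tested.

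Among the proteins of the lateral stalk, the arm of the large subunit that recruits translation factors, the 3 genes had log2 fold changes from -0.92 to -0.66. RPLP1 had 583, 555 and 589 CPM in the Oxy@Lipo/Gel libraries, against 1032, 1452 and 788 CPM in the control libraries. The groups did not overlap, and its log2 fold change was -0.92 ± 0.29 (SE) with an edgeR adjusted p of 0.143. RPLP2, its partner in the stalk dimer, had 368, 415 and 418 CPM in the Oxy@Lipo/Gel libraries, against 577, 849.9 and 491 CPM in the control libraries. It was lower in every Oxy@Lipo/Gel library than in any control library, with a log2 fold change of -0.68 ± 0.27 (SE) and an edgeR adjusted p of 0.198. RPLP0, the base to which the dimers bind, had 804, 673 and 678 CPM in the Oxy@Lipo/Gel libraries, against 1115, 1537 and 753 CPM in the control libraries. Here Oxy@Lipo/Gel replicate 1 lay above control replicate 3, so the groups overlapped, and the log2 fold change was -0.66 ± 0.33 (SE; adjusted p = 0.275 in edgeR).

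RPL5 and RPL11 join the ribosome together with its smallest RNA, and when unassembled they bind MDM2 and thereby stabilise p53. RPL11 had 363, 382 and 408 CPM in the Oxy@Lipo/Gel libraries, against 717, 964 and 542 CPM in the control libraries. All Oxy@Lipo/Gel libraries were below all control libraries, and at -0.95 ± 0.27 (SE) its log2 fold change was the most negative of the large subunit (adjusted p in edgeR = 0.125). RPL5 had 399, 434 and 486 CPM in the Oxy@Lipo/Gel libraries, against 705, 911 and 540.0 CPM in the control libraries, also without overlap, and a log2 fold change of -0.71 ± 0.27 (SE; adjusted p = 0.181 in edgeR). Of 10 genes listed for the p53 response to free ribosomal proteins, 0 passed in edgeR (3 lower and 1 higher at an unadjusted p under 0.05, where 12.6% of all genes tested were lower), DESeq2 called 2 lower, where it called 5.88% of all genes lower, 7 log2 fold changes were below 0 and the median was -0.31. MDM2 itself, the ubiquitin ligase of p53, measured 84.8 ± 10.5 CPM in the Oxy@Lipo/Gel libraries and 128 ± 16.3 CPM in the control libraries (SD, n = 3 each; edgeR adjusted p = 0.126). BAX, a pro-apoptotic p53 target, measured 597 ± 50.2 CPM in the Oxy@Lipo/Gel libraries and 953 ± 176 CPM in the control libraries (adjusted p in edgeR = 0.18), and SESN2, a stress-induced brake on mTOR, measured 19.0 ± 3.77 CPM in the Oxy@Lipo/Gel libraries and 28.0 ± 3.02 CPM in the control libraries.

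The 2 most negative log2 fold changes belonged to small subunit genes. RPS27, a zinc-finger protein of the small subunit, had 262, 271 and 290.5 CPM in the Oxy@Lipo/Gel libraries, against 609, 872 and 414 CPM in the control libraries. The Oxy@Lipo/Gel libraries lay within a narrow range and far below the control libraries, which spread widely, and its log2 fold change was -1.20 ± 0.31 (SE) with an edgeR adjusted p of 0.104. RPS26, which lies beside the mRNA exit channel, had 165, 184 and 184 CPM in the Oxy@Lipo/Gel libraries, against 378, 466 and 312 CPM in the control libraries. The gap between the groups was wider than the range within the Oxy@Lipo/Gel group, the log2 fold change was -1.12 ± 0.21 (SE), and the edgeR adjusted p of 0.0617 was the smallest of any member. RPS20, a protein of the small subunit head, had 649.6, 624 and 652 CPM in the Oxy@Lipo/Gel libraries, against 1273, 1587 and 806 CPM in the control libraries, and RPS21 had 198, 194 and 240.5 CPM in the Oxy@Lipo/Gel libraries, against 343, 535 and 319.5 CPM in the control libraries. In both genes the groups did not overlap, and the log2 fold changes were -0.93 ± 0.31 (SE) and -0.92 ± 0.26 (SE). DESeq2 called all of RPS27, RPS26, RPL11, RPS20, RPLP1 and RPS21 lower, with adjusted p-values from 9.28e-06 for RPS26 to 0.0251 for RPS20. These genes had the most negative log2 fold changes in the same counts. DESeq2 called 26 of 74 members and 5.88% of all genes lower, while edgeR called 0 members.

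RPS6, the small subunit protein phosphorylated downstream of mTOR, had 513, 514 and 585 CPM in the Oxy@Lipo/Gel libraries, against 1013, 1269 and 738 CPM in the control libraries. The groups were apart, with a log2 fold change of -0.91 ± 0.28 (SE; adjusted p = 0.136 in edgeR). RPS19, the gene most often mutated in Diamond-Blackfan anaemia, had 640.1, 563 and 631 CPM in the Oxy@Lipo/Gel libraries, against 923, 1350 and 701 CPM in the control libraries. Its 2 closest libraries, Oxy@Lipo/Gel replicate 1 and control replicate 3, did not cross, and its log2 fold change was -0.70 ± 0.30 (SE; adjusted p = 0.229 in edgeR). RPS14, whose loss of a copy contributes to a myelodysplastic syndrome, measured 539.7 ± 29.5 CPM in the Oxy@Lipo/Gel libraries and 821 ± 279 CPM in the control libraries. Over the 17 members mutated in Diamond-Blackfan anaemia the median log2 fold change was -0.66 and 15 had groups that did not overlap, beside 17.7% of all genes tested. These values were close to those of all 74 members, with a median of -0.68 and 65 without overlap.

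RPS3 and RPS2 both line the path by which mRNA enters the small subunit. RPS3 had 461, 478 and 557 CPM in the Oxy@Lipo/Gel libraries, against 664, 1017 and 559 CPM in the control libraries, and control replicate 3 and Oxy@Lipo/Gel replicate 3 nearly met. Its log2 fold change was -0.58 ± 0.29 (SE; adjusted p = 0.28 in edgeR). RPS2 had 711, 672 and 656 CPM in the Oxy@Lipo/Gel libraries, against 889, 1198 and 648 CPM in the control libraries, so that control replicate 3 was below every Oxy@Lipo/Gel library, and its log2 fold change was -0.42 ± 0.29 (SE; adjusted p = 0.417 in edgeR). RPS25, which some viral and cellular mRNAs need for initiation at internal entry sites, measured 190.4 ± 19.2 CPM in the Oxy@Lipo/Gel libraries and 285 ± 65.3 CPM in the control libraries. RPS27A, made as a fusion to ubiquitin, measured 407 ± 18.4 CPM in the Oxy@Lipo/Gel libraries and 642 ± 159 CPM in the control libraries.

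Among large subunit proteins with reported roles in specific mRNAs or tissues, RPL10, a late-joining protein needed for release of the export factor NMD3, measured 647 ± 55.3 CPM in the Oxy@Lipo/Gel libraries and 1048 ± 324 CPM in the control libraries. RPL13A, which in human monocytic cells silences inflammatory mRNAs after its release from the ribosome, measured 754 ± 24.8 CPM in the Oxy@Lipo/Gel libraries and 1191 ± 363 CPM in the control libraries. RPL22, which mouse T cells need for their development, measured 210.5 ± 22.0 CPM in the Oxy@Lipo/Gel libraries and 356 ± 89.6 CPM in the control libraries, and RPL38, which in the mouse is needed for translation of some homeobox mRNAs, measured 232 ± 18.4 CPM in the Oxy@Lipo/Gel libraries and 343 ± 77.2 CPM in the control libraries. RPL39, a protein of the peptide exit tunnel, had 101, 105 and 99.95 CPM in the Oxy@Lipo/Gel libraries, against 160.4, 167 and 130.0 CPM in the control libraries. Its SE was the smallest of all members. Its log2 fold change was -0.58 ± 0.16 (SE), and its edgeR adjusted p of 0.115 was the smallest of the large subunit. RPL12 of the stalk base, RPL31 at the tunnel exit and RPS28 of the small subunit had log2 fold changes of -0.86 ± 0.25 (SE), -0.81 ± 0.23 (SE) and -0.81 ± 0.24 (SE) and edgeR adjusted p-values of 0.126, 0.118 and 0.129.

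The least negative values were those of RPL7A, RPL21, RPS2 and RPL28. RPL7A had 666, 702 and 668 CPM in the Oxy@Lipo/Gel libraries, against 841, 966 and 626 CPM in the control libraries. Control replicate 3 was the lowest of all 6 libraries for this gene, and its log2 fold change of -0.26 ± 0.25 (SE) lay within about 1 SE of 0 (adjusted p in edgeR = 0.571). RPL21 had 356, 385 and 373 CPM in the Oxy@Lipo/Gel libraries, against 469, 605 and 402 CPM in the control libraries, with groups that did not overlap and a log2 fold change of -0.41 ± 0.22 (SE). RPL28 measured 302 ± 26.9 CPM in the Oxy@Lipo/Gel libraries and 410.2 ± 121 CPM in the control libraries, with overlap. The members whose groups overlapped were RPL7A, RPS2, RPL28, RPLP0, RPS24, RPL15, RPS23, RPL36A and RPL9, and in each it was control replicate 3 that lay among or below the Oxy@Lipo/Gel libraries. The 40 members that the naming rule did not choose had log2 fold changes from -0.86 to -0.45 and edgeR adjusted p-values from 0.130 to 0.338.

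**Figure D3:**
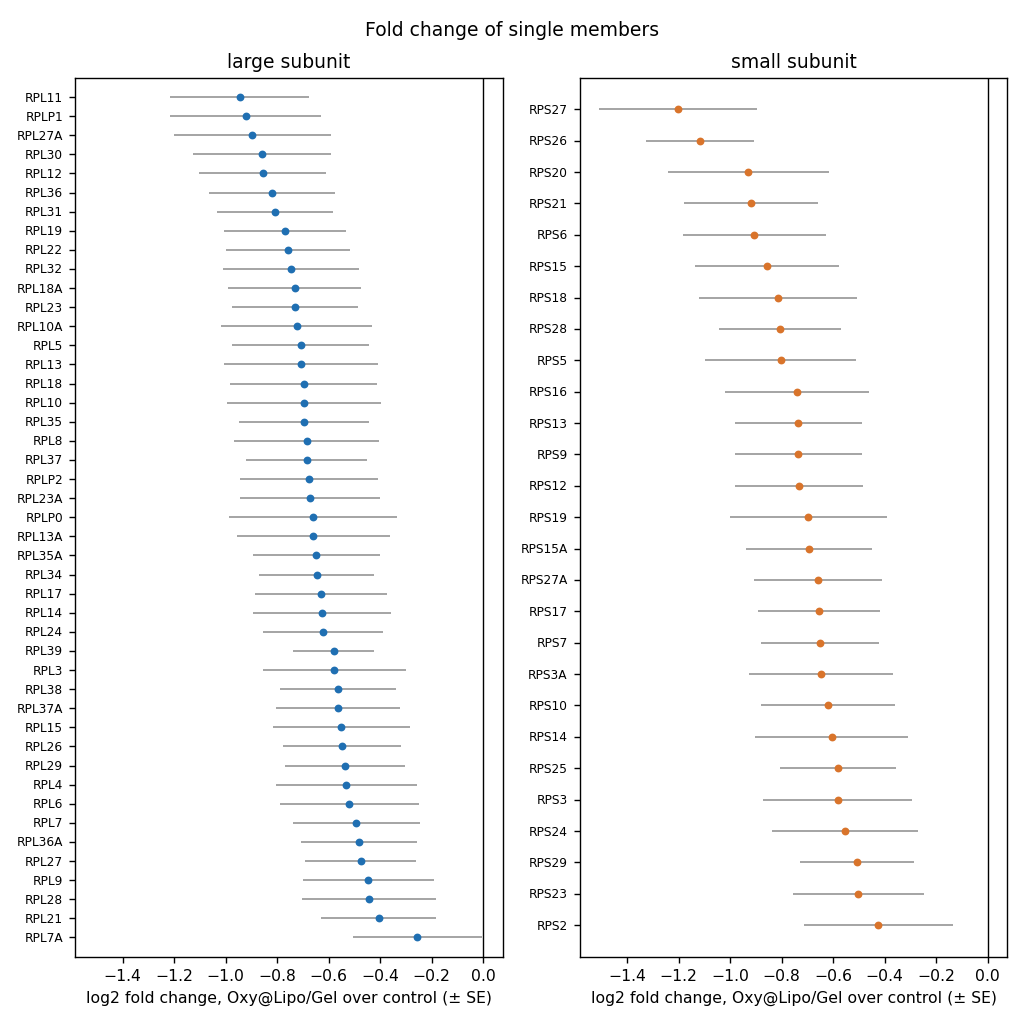
The log2 fold change of 72 members from edgeR, Oxy@Lipo/Gel over control, with its SE as a bar, for 45 large subunit genes left and 27 small subunit genes right, sorted by value. All 72 points lie below 0, from -1.20 for RPS27 to -0.26 for RPL7A.

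Both subunits measured lower, and whether they differed in fold change was not tested. Large subunit genes had a median log2 fold change of -0.66 (39 of 45 without overlap, 11 called lower by DESeq2) and small subunit genes of -0.73 (26 of 29 without overlap, 15 called lower by DESeq2), where 17.7% and 5.88% of all genes tested met these rules. Large subunit genes took 1.94%, 1.85% and 1.78% of the counts in the Oxy@Lipo/Gel libraries, against 2.90%, 3.20% and 2.33% in the control libraries. Small subunit genes took 1.26%, 1.18% and 1.17% in the Oxy@Lipo/Gel libraries, against 1.98%, 2.20% and 1.57% in the control libraries. The ratio of summed FPKM, large over small, was 1.32, 1.35 and 1.31 in the Oxy@Lipo/Gel libraries and 1.29, 1.27 and 1.28 in the control libraries. The groups did not overlap, and the means of 1.33 ± 0.0225 in the Oxy@Lipo/Gel group and 1.28 ± 0.00600 in the control group (SD, n = 3 each) differed by 0.0471. Control replicates 2 and 3, which differed most in member level, had nearly the same ratio.

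The make-up of the pool showed which members were lower than the rest. As a share of all member counts, 67 of 74 genes differed between the groups by at most 0.25 on the log2 scale. The share did not overlap between groups for 24 members, lower in 10 (13.5% of the 74) and higher in 14 (18.9%), with no comparison over all genes for this measure. Large subunit genes, 45 of the 74, made up 6 of the 10 and 12 of the 14. RPS27 took 0.903%, 0.908% and 0.915% of the pool in the Oxy@Lipo/Gel libraries, against 1.29%, 1.39% and 1.14% in the control libraries. RPS26 took 0.570%, 0.617% and 0.579% in the Oxy@Lipo/Gel libraries, against 0.803%, 0.744% and 0.861% in the control libraries. For both the share was lower in every Oxy@Lipo/Gel library, by 0.49 and 0.45 on the log2 scale. RPL7A took 2.29%, 2.36% and 2.10% of the pool in the Oxy@Lipo/Gel libraries, against 1.79%, 1.54% and 1.72% in the control libraries, and its share was higher by 0.42. Shares of a pool sum to a fixed total, so a lower share of some members raises that of others. Over the 74 members the log2 fold change had a rank correlation of -0.54 with the mean FPKM and of 0.35 with gene length, which describes these libraries only, since all members share the same libraries and scaling factors.

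Ribosomal components that the naming rule leaves out had values within the members' range. All 5 had log2 fold changes below 0, with a median of -0.68, and 0 of 5 passed in edgeR (4 lower at an unadjusted p under 0.05) while DESeq2 called 3 lower, where 12.6% and 5.88% of all genes tested were. RACK1, a scaffold protein on the small subunit head, had 584, 538 and 571 CPM in the Oxy@Lipo/Gel libraries, against 1033, 1405 and 699.7 CPM in the control libraries. RPS4X measured 429.9 ± 20.7 CPM in the Oxy@Lipo/Gel libraries and 711 ± 211 CPM in the control libraries, and FAU, a fusion of a ubiquitin-like and a small subunit protein, measured 233 ± 27.6 CPM in the Oxy@Lipo/Gel libraries and 374 ± 63.0 CPM in the control libraries. RPSA, also known as a laminin receptor, measured 424 ± 47.4 CPM in the Oxy@Lipo/Gel libraries and 576 ± 136 CPM in the control libraries and was the one of the 5 whose groups overlapped. Paralogs of ribosomal protein genes were nearer to 0, with 7 of 9 tested, a median of -0.28 and 2 lower without overlap, where 17.7% of all genes tested were. The paralog RPL36AL measured 54.7 ± 4.89 CPM in the Oxy@Lipo/Gel libraries and 70.5 ± 8.73 CPM in the control libraries, RPS27L measured 57.5 ± 8.28 CPM in the Oxy@Lipo/Gel libraries and 69.9 ± 7.90 CPM in the control libraries, and RSL24D1, a related protein of large subunit maturation, measured 62.7 ± 3.60 CPM in the Oxy@Lipo/Gel libraries and 84.8 ± 9.23 CPM in the control libraries.

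**Figure D4:**
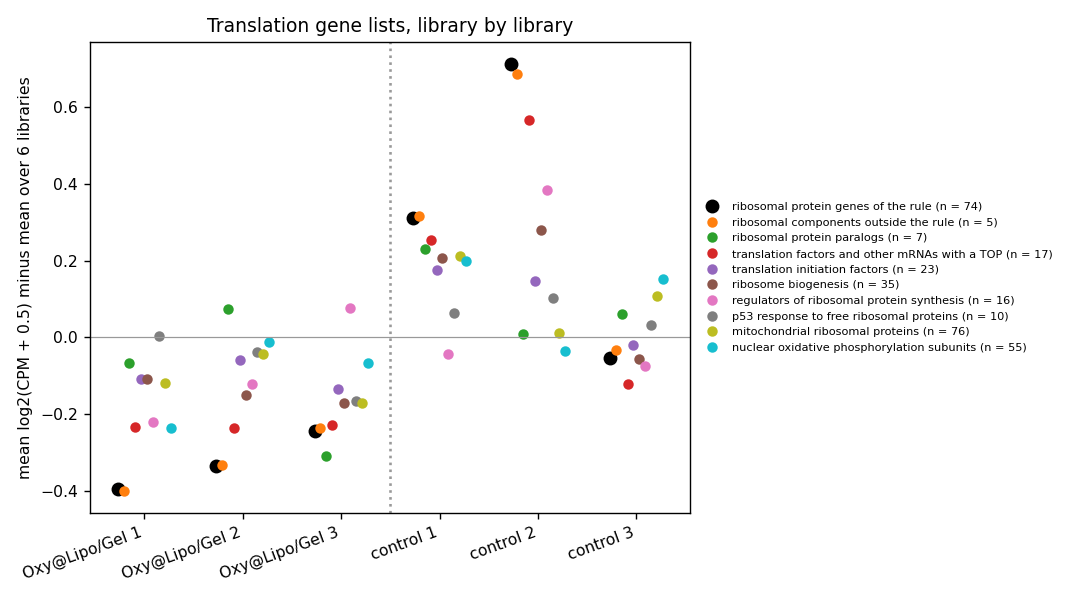
Mean of log2(CPM + 0.5) over the genes of each list in each library, relative to the mean of the 6 libraries, Oxy@Lipo/Gel left and control right. The ribosomal protein genes (black) and the components outside the rule (orange) have their lowest values in Oxy@Lipo/Gel replicate 1, at -0.39 and -0.40, and their highest in control replicate 2, at 0.71 and 0.69, where the mitochondrial ribosomal protein genes lie at 0.01. In shares of all counts, without TMM, replicate 1 was the highest Oxy@Lipo/Gel library for the members, at 3.20%.

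Translation factors and other genes whose mRNAs also carry a TOP followed the same order of the control libraries. This order was not particular to them. In control replicates 1, 2 and 3 the list means were 0.21, 0.28 and -0.06 for ribosome biogenesis. They were -0.04, 0.38 and -0.07 for regulators of ribosomal protein synthesis, and 0.06, 0.10 and 0.03 for the p53 list. The list of other translation initiation factors, the paralogs and the mitochondrial lists had another order. Of the 17 genes of the TOP list 16 had log2 fold changes below 0, and the median was -0.53. In edgeR 0 passed (6 lower at an unadjusted p under 0.05, where 12.6% of all genes tested were). DESeq2 called 2 lower, and 5.88% of all genes. In CPM 9 of the 17 were lower without overlap, where 17.7% of all genes tested were. The mean of the TOP list was -0.23, -0.24 and -0.23 in the Oxy@Lipo/Gel libraries and 0.26, 0.57 and -0.12 in the control libraries. EIF3L, a subunit of initiation factor complex eIF3, had 126, 124 and 111 CPM in the Oxy@Lipo/Gel libraries, against 262, 323 and 202 CPM in the control libraries. The groups were clearly apart, at a log2 fold change of -1.12 ± 0.22 (SE) and an edgeR adjusted p of 0.0638. EEF1B2, a nucleotide exchange factor of elongation, measured 147 ± 11.3 CPM in the Oxy@Lipo/Gel libraries and 232 ± 55.4 CPM in the control libraries, and BTF3, a part of the complex that binds nascent chains, measured 245 ± 25.5 CPM in the Oxy@Lipo/Gel libraries and 408 ± 100.4 CPM in the control libraries. The other initiation factors had a median of -0.24 over 23 genes tested (of 24 listed), 11 of which were lower without overlap and 3 called lower by DESeq2, where 17.7% and 5.88% of all genes tested were. EIF4A1, the initiation helicase, measured 194 ± 24.3 CPM in the Oxy@Lipo/Gel libraries and 289.8 ± 34.4 CPM in the control libraries. The eIF3 subunit EIF3I measured 89.2 ± 3.24 CPM in the Oxy@Lipo/Gel libraries and 118 ± 4.05 CPM in the control libraries, and EIF3G measured 168 ± 8.76 CPM in the Oxy@Lipo/Gel libraries and 248 ± 43.1 CPM in the control libraries.

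Genes that build ribosomes or regulate their synthesis had medians nearer to 0. The list of ribosome biogenesis had a median of -0.32, with 32 of 35 genes below 0, 0 called by edgeR (12 lower and 2 higher at an unadjusted p under 0.05), and 4 lower and 2 higher by DESeq2, beside 12.6% of all genes lower at that p and 5.88% called lower by DESeq2. In CPM 16 of the 35 were lower without overlap and 2 higher, where 17.7% of all genes tested were lower. FBL, the methyltransferase fibrillarin, measured 78.2 ± 2.31 CPM in the Oxy@Lipo/Gel libraries and 141 ± 45.5 CPM in the control libraries, RIOK1, a kinase of small subunit maturation, measured 15.2 ± 1.12 CPM in the Oxy@Lipo/Gel libraries and 24.7 ± 4.03 CPM in the control libraries, and NOP58, a core protein of small nucleolar ribonucleoproteins, measured 42.8 ± 2.78 CPM in the Oxy@Lipo/Gel libraries and 61.6 ± 7.93 CPM in the control libraries. Of 16 regulators 0 passed in edgeR (4 lower and 1 higher at an unadjusted p under 0.05), DESeq2 called 2 lower and 1 higher, and the median was -0.16, where 12.6% and 5.88% of all genes tested were lower by these rules. RPS6KB1, the kinase of RPS6, had 30.3, 27.9 and 32.8 CPM in the Oxy@Lipo/Gel libraries, against 50.05, 62.5 and 41.2 CPM in the control libraries, lower in every Oxy@Lipo/Gel library (adjusted p in edgeR = 0.0972). EIF4EBP1, the mTOR-controlled repressor of the cap-binding protein, was on the other side, with 13.5, 19.0 and 24.9 CPM in the Oxy@Lipo/Gel libraries, against 11.1, 12.3 and 9.89 CPM in the control libraries and a log2 fold change of 0.79 ± 0.26 (SE; adjusted p = 0.148 in edgeR). MAX, the partner of MYC, measured 31.5 ± 2.81 CPM in the Oxy@Lipo/Gel libraries and 46.3 ± 1.57 CPM in the control libraries.

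Mitochondrial ribosomal protein genes, whose products form the separate ribosome of that organelle, ranked the control libraries in another order. Of 76 genes 60 had log2 fold changes below 0, the median was -0.24, 0 passed in edgeR (19 lower and 2 higher at an unadjusted p under 0.05) and DESeq2 called 10 lower and 1 higher, beside 12.6% of all genes lower at that p and 5.88% called lower by DESeq2. In CPM 35 of the 76 were lower without overlap and 3 higher, where 17.7% of all genes tested were lower. The list mean was -0.12, -0.04 and -0.17 in the Oxy@Lipo/Gel libraries and 0.21, 0.01 and 0.11 in the control libraries. Control replicate 2, highest for every cytosolic member in CPM, was thus the lowest control here. MRPL28 had 26.6, 28.9 and 28.7 CPM in the Oxy@Lipo/Gel libraries, against 43.0, 44.9 and 45.8 CPM in the control libraries. It was the nearest to the threshold of any gene in these lists, with a log2 fold change of -0.67 ± 0.12 (SE) and an edgeR adjusted p of 0.0565. MRPS18C measured 11.5 ± 0.691 CPM in the Oxy@Lipo/Gel libraries and 20.6 ± 3.34 CPM in the control libraries, and MRPL2 measured 35.9 ± 1.81 CPM in the Oxy@Lipo/Gel libraries and 50.5 ± 1.45 CPM in the control libraries. Nuclear subunits of oxidative phosphorylation had a median of -0.23 with 51 of 55 below 0, 0 called by edgeR, 6 lower at an unadjusted p under 0.05 and 2 called lower by DESeq2. Both counts are smaller shares than the 12.6% and 5.88% of all genes tested. In CPM 16 of the 55 were lower without overlap and 2 higher, where 17.7% of all genes tested were lower. The list mean of the oxidative phosphorylation genes in control replicate 2 was -0.04. Among these, the complex I genes NDUFS3 and NDUFS4 had log2 fold changes of -0.44 ± 0.12 (SE) and -0.50 ± 0.15 (SE), and the ATP synthase gene ATP5MF had -0.44 ± 0.14 (SE). Within a library the mitochondrial ribosomal protein genes spread by an SD of 0.16 to 0.29 around their mean, against 0.09 to 0.12 for the cytosolic members.

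**Figure D5:**
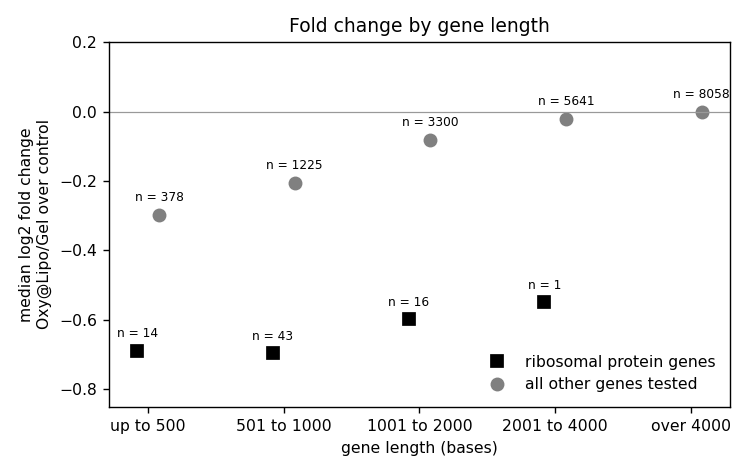
Median log2 fold change, Oxy@Lipo/Gel over control, in bins of gene length for the ribosomal protein genes (squares) and all other genes tested (circles), with the number of genes at each point. The other genes run from -0.30 up to 500 bases to 0 over 4000 bases, and the members lie between -0.70 and -0.55.

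Over the whole table the fold change varied with gene length. The members are short, with a median of 719 bases. Among genes outside the list the median log2 fold change was -0.30 for 378 genes of up to 500 bases, -0.21 for the next 1225 genes of up to 1000, -0.08 for 3300 of up to 2000 and -0.02 for 5641 of up to 4000. In the same bins the members had medians of -0.69 (14 genes), -0.70 (43), -0.60 (16) and -0.55 (1, RPL15). The other genes of up to 500 bases had mean deviations of -0.06, -0.06 and -0.11 in the Oxy@Lipo/Gel libraries and 0.05, 0.03 and 0.14 in the control libraries, so their highest control was replicate 3, the lowest control of every member. With each library's trend on gene length removed before the edgeR test, all 74 members stayed below 0 with a median of -0.54, and the median of the other genes of up to 500 bases became -0.004. This correction was chosen after the data were seen, and so was leaving out the 2 most abundant genes.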

How the data were processed

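Whole-number counts per gene and FPKM were deposited for 6 libraries, 3 per group. Per the labels' protocols, RNA was poly(A)-selected, libraries were strand-specific and reads paired. The builds rheMac8, Mmul_8.0.1 and GRCm38 appear per the submitters' processing notes, with no role. What aligner, counting program, annotation and strand setting the authors used is not given in the sources here. The authors' FPKM follow from their counts: a whole gene length, the same in all libraries within 0.01 bases, resulted for each of 17796 genes with 5 or more counts throughout. Of the 74 symbols 72 were found in the reference gene table. No coordinates or sequences were used.

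The test used edgeR 4.0.16 under R 4.3.3 with TMM, filterByExpr (minimum count 10, minimum total 15), quasi-likelihood F test, Benjamini-Hochberg adjustment over 18676 genes at 0.05. The SE is the log2 fold change over the square root of F. Scripts were tested on simulated data. Alternatives used DESeq2 1.42.0, limma 3.58.1, other scalings and filters, log2(FPKM + 1) and log2(FPKM + 0.1), and left-out libraries. Members and lists were chosen with earlier results of these data known. Genes named were the 5 highest and lowest by FPKM, the 8 smallest p, the 4 most negative and the 4 least negative fold changes, 15 members of known role, and for each other list those with the smallest p. Some genes that this rule names are not reported here. RPL15 and members with overlapping groups were named after their values were seen. A chi-square test of counts found every replicate pair to differ beyond sampling noise.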

Additional observations from a re-analysis of the deposited data

How the results depend on the processing

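All 74 log2 fold changes of the members stayed below 0 under every alternative run, and their median ran from -0.86 (without control replicate 3) to -0.46 (without control replicate 2). The count of members called was 0 throughout except for 26 with DESeq2. Among all genes tested 287 were called, against 183 with library totals, 2492 with DESeq2 and 0 to 628 with a library left out. With the replicate number as a block the count was 0, and 8 members (10.8%) had an unadjusted p under 0.05, beside 15.35% of all genes. The deviations of samples with the same number from their group means had r of 0.23, -0.38 and -0.20 for numbers 1, 2 and 3. Deviations from a mean of 3 libraries constrain each other, so these values cannot show whether the numbers pair the samples. The median of other genes of up to 500 bases, -0.30, was -0.12 without a count filter, -0.21 and -0.24 with log2(FPKM + 1) and log2(FPKM + 0.1), and -0.004 with the length trend removed. With counts in place of FPKM the subunit ratio differed by 0.0721 in place of 0.0471. The cause of these differences was not tested, except that the length correction removes that trend by construction. Counting error is small for these genes.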
